A study of Mus musculus with 12 samples.

Results

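Aminoacyl-tRNA synthetases are the enzymes that join each amino acid to its transfer RNA, the step that gives the genetic code its meaning. The transcripts described here are those of 36 genes chosen by name, of which 20 encode cytosolic enzymes or their subunits and 16, whose symbols end in 2, encode mitochondrial enzymes. A probe set that was assigned to a single gene was found for 34 of them, 18 cytosolic and 16 mitochondrial, among 19938 genes in the table. Aars, the alanine enzyme, shared its probe set with Exosc6, and neither Aars nor the aspartate enzyme Dars was analysed here. For each gene the probe set with the highest mean over the 12 arrays was used, which was a choice only for Iars, with 2 probe sets.

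Quadriceps muscle was taken at 7 days of age from C57Bl/6 mice titled KO (genotype given as cofilin-2 null) and from wild type littermates titled WT. Each group had 6 mice, each with an array of its own. Cfl2 encodes cofilin-2, the muscle form of a protein that takes actin filaments apart, and the comparison asks which transcripts differ when it is missing. How the null allele was made is not given in the sources used here, and the animals were not pooled. No sex is given in the labels.

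Cfl2 itself was opposed to the labels. The log2 level was 12.31 to 12.43 over the 6 arrays labelled KO, against 4.92 to 7.71 over the 6 labelled WT, and limma gave a difference of 6.32 ± 0.36 (SE, adjusted p = 1.98e-07). Cfl2 is the gene the study describes as knocked out, so the labels and this transcript point opposite ways, and every direction given here could be the reverse of the one between the genotypes. Each array keeps its deposited label throughout, and differences are labelled KO minus labelled WT. It was not checked which exons the Cfl2 probes cover.

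Values are log2 levels, so that a difference of 1 is a doubling, and they were compared with limma over all 21789 probe sets with 1 gene symbol. Calls are adjusted p-values under 0.05. Of the 21789 probe sets 31.9% were called. Over the 19938 genes 31.9% were called, 20.1% being higher and 11.8% lower in the group labelled KO, with a median log2 difference of -0.015. Of all called probe sets 61.1% were higher. That share was 36.2% with each array centred on the median of its named probe sets and 77.8% with centring on all rows of the table, so small differences depend on how the arrays are scaled. Array medians over all rows were 6.35 to 6.41 on the arrays labelled KO and 6.42 to 6.46 on those labelled WT, while medians over the named probe sets ran the other way, at 7.16 to 7.18 with the label KO and 7.08 to 7.13 with the label WT. The muscle fibre markers averaged 12.89 to 13.07 on the arrays labelled KO and 12.72 to 12.98 on the arrays labelled WT, with 2 of 10 higher and 5 lower. The 2 higher were Myh4 (1.70) and Actn3 (0.54). The other 8 had negative differences, and the median of the list was -0.098.

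Animal cells keep separate sets of synthetases for cytosolic and mitochondrial protein synthesis, and the genes of both sets lie in the nucleus. In the cytosol, several of the enzymes are bound together with scaffold proteins in the multisynthetase complex, while others act free or with the elongation factor. When amino acids run short or the endoplasmic reticulum is stressed, the transcription factor ATF4 raises many cytosolic synthetase genes, as shown in mouse cells, along with amino acid transporters and the asparagine synthetase gene Asns. Autoantibodies against several synthetases, the histidine enzyme first among them, mark a form of human myositis.

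Cytosolic synthetase transcripts were mostly lower on the arrays labelled KO, and mitochondrial ones mostly higher. Among the 18 cytosolic genes measured 9 fell (50%, against 11.8% of all genes), 1 rose (5.56%, against 20.1%) and 8 did not pass. Among the 16 mitochondrial genes 10 rose (62.5%, against 20.1%) and 6 did not pass. No mitochondrial gene fell by limma, at an unadjusted p under 0.05 or by the methods' t-test, although Iars2 was called lower with centring on the named probe sets. The median log2 difference was -0.13 for the cytosolic genes and 0.18 for the mitochondrial genes, beside -0.015 for all genes. These changes were small, with the largest at -0.43 and 0.41. Being a comparison of lists chosen with results of these arrays known, the contrast between the groups of enzymes was not tested.

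**Figure D1:**
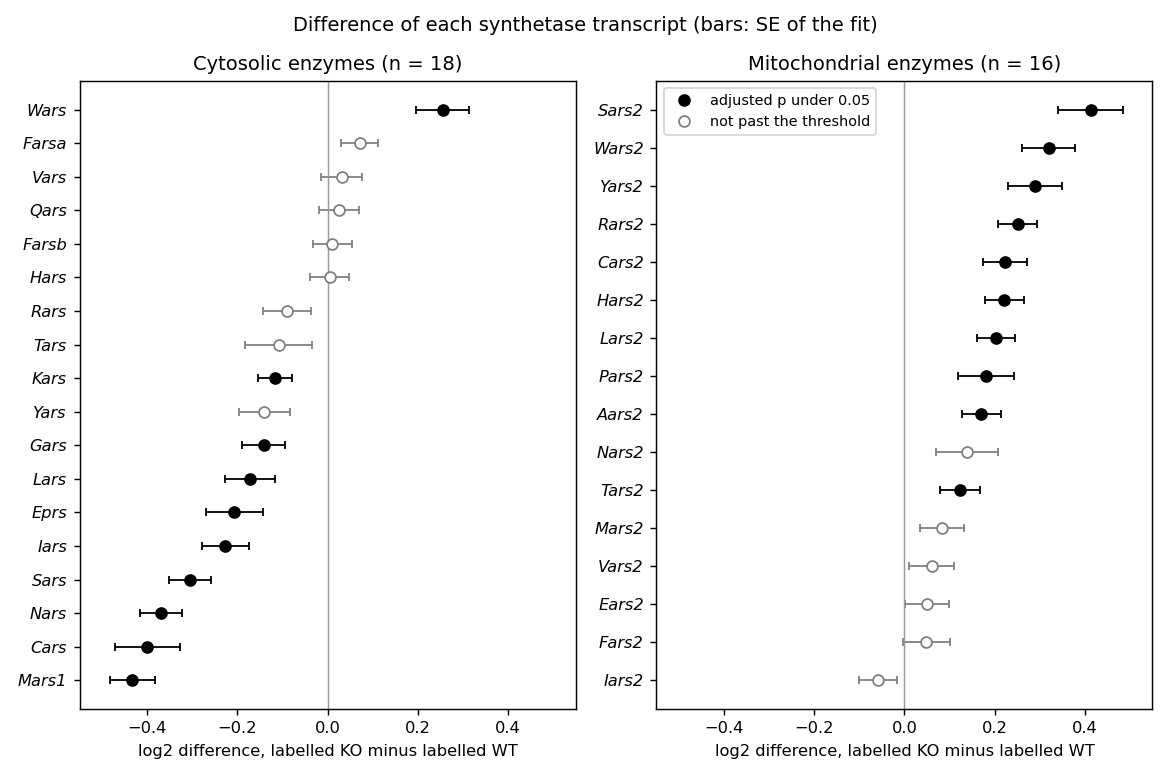
Log2 difference, labelled KO minus labelled WT, of the 18 cytosolic (left) and 16 mitochondrial (right) synthetase transcripts; bars are the SE of the limma fit, filled points passed an adjusted p of 0.05 and open points did not. Cytosolic genes run from -0.43 (Mars1) to 0.255 (Wars) and mitochondrial genes from -0.06 (Iars2) to 0.41 (Sars2).

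Mars1, whose product charges both the initiator and the elongator transfer RNA of methionine, had the largest fall. Its lowest, median and highest log2 levels were 9.01, 9.105 and 9.19 on the arrays labelled KO and 9.45, 9.53 and 9.72 on the arrays labelled WT. The groups did not overlap, and the difference was -0.43 ± 0.05 (SE, adjusted p = 3.25e-05). Cars, the cysteine enzyme, lay at 8.26, 8.35 and 8.45 on the arrays labelled KO and at 8.50, 8.815 and 8.97 on the arrays labelled WT. Every array labelled KO was again below every array labelled WT, though the highest and lowest of the 2 groups were only 8.45 and 8.50 (difference -0.40 ± 0.07 SE, adjusted p = 0.000848). The arrays labelled WT2 and WT4, at 8.50 and 8.60, were the lowest of their group.

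Nars, which charges asparagine, lay at 10.50, 10.535 and 10.61 on the arrays labelled KO and at 10.80, 10.91 and 11.07 on the arrays labelled WT, a difference of -0.37 ± 0.05 (SE, adjusted p = 6.11e-05). Sars, the serine enzyme, lay at 10.25, 10.32 and 10.41 on the arrays labelled KO and at 10.48, 10.63 and 10.74 on the arrays labelled WT (-0.305 ± 0.046 SE, adjusted p = 0.000245). Neither gene's groups overlapped, and with Mars1 and Cars these made 4 of 18 cytosolic genes wholly lower on the arrays labelled KO, where 4.69% of all genes were. The isoleucine enzyme Iars overlapped slightly, with 10.34, 10.385 and 10.50 on the arrays labelled KO and 10.45, 10.645 and 10.74 on the arrays labelled WT (-0.23 ± 0.05 SE, adjusted p = 0.00443). The array labelled WT2, at 10.45, was the array of its group that lay within the range labelled KO. The second Iars probe set ran the same way, at 9.99 to 10.51 on the arrays labelled KO and 10.35 to 10.68 on the arrays labelled WT (-0.365 ± 0.085 SE, adjusted p = 0.00492).

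Smaller falls were seen for Eprs, a fused enzyme for glutamate and proline (-0.21 ± 0.06 SE, adjusted p = 0.0226), and for Lars, the leucine enzyme that also takes part in leucine sensing (-0.17 ± 0.06, adjusted p = 0.0295). Gars and Kars, for glycine and lysine, each encode both a cytosolic and a mitochondrial form of the protein in mammals. Their differences were -0.14 ± 0.05 (adjusted p = 0.0358) and -0.12 ± 0.04 (adjusted p = 0.0301). All 4 calls were lost with centring on all rows, where the differences were -0.16, -0.12, -0.09 and -0.07 in the same order, and all 4 were also lost without some single arrays. In contrast, the calls of Mars1, Cars, Nars, Sars and Iars held under all 26 alternatives run, including each array left out in turn.

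Yars, Tars and Rars, for tyrosine, threonine and arginine, had log2 differences of -0.14, -0.11 and -0.09 that did not pass (adjusted p = 0.0698, 0.284 and 0.21). Yars was called lower under 6 of the 26 alternatives, among them quantile normalization (-0.19, adjusted p = 0.0165), centring on named probe sets (-0.20) and array weights (-0.20). Rars was called under 1 of them, centring on named probe sets (-0.15, adjusted p = 0.0474), and Tars under 1, without the array labelled KO1 (-0.17, adjusted p = 0.0455). Of the phenylalanine enzyme, built from 2 kinds of subunit, Farsa differed by 0.07 and Farsb by 0.01. Vars, Qars and Hars, for valine, glutamine and histidine, differed by 0.03, 0.025 and 0.005, with adjusted p up to 0.941. Other scalings gave Farsb, Vars, Qars and Hars small negative differences, so that no direction is given for them.

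Wars was the exception among the cytosolic genes. It encodes the tryptophan enzyme, which interferon gamma is known to induce. Its lowest, median and highest levels were 9.70, 9.79 and 9.86 on the arrays labelled KO and 9.37, 9.54 and 9.70 on the arrays labelled WT, so that the groups met at 9.70 (difference 0.255 ± 0.059 SE, adjusted p = 0.00459). Of 9 interferon-stimulated genes measured of 12 listed, 3 were higher (33.3%, against 20.1% of all genes) and 1 lower (11.1%, against 11.8%), shares that lie near those of all genes. Gbp3, Irf1 and Ifit1 differed by 0.545, 0.37 and 0.255, and the chemokine gene Cxcl10 by -0.52 (adjusted p = 0.00258, 0.0383, 0.0388 and 0.0398). Their relation to Wars was not tested. The Wars call was lost with the adipocyte marker level as a covariate, where the difference was 0.27 ± 0.09 (SE, adjusted p = 0.0755), and held under the other alternatives.

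**Figure D2:**
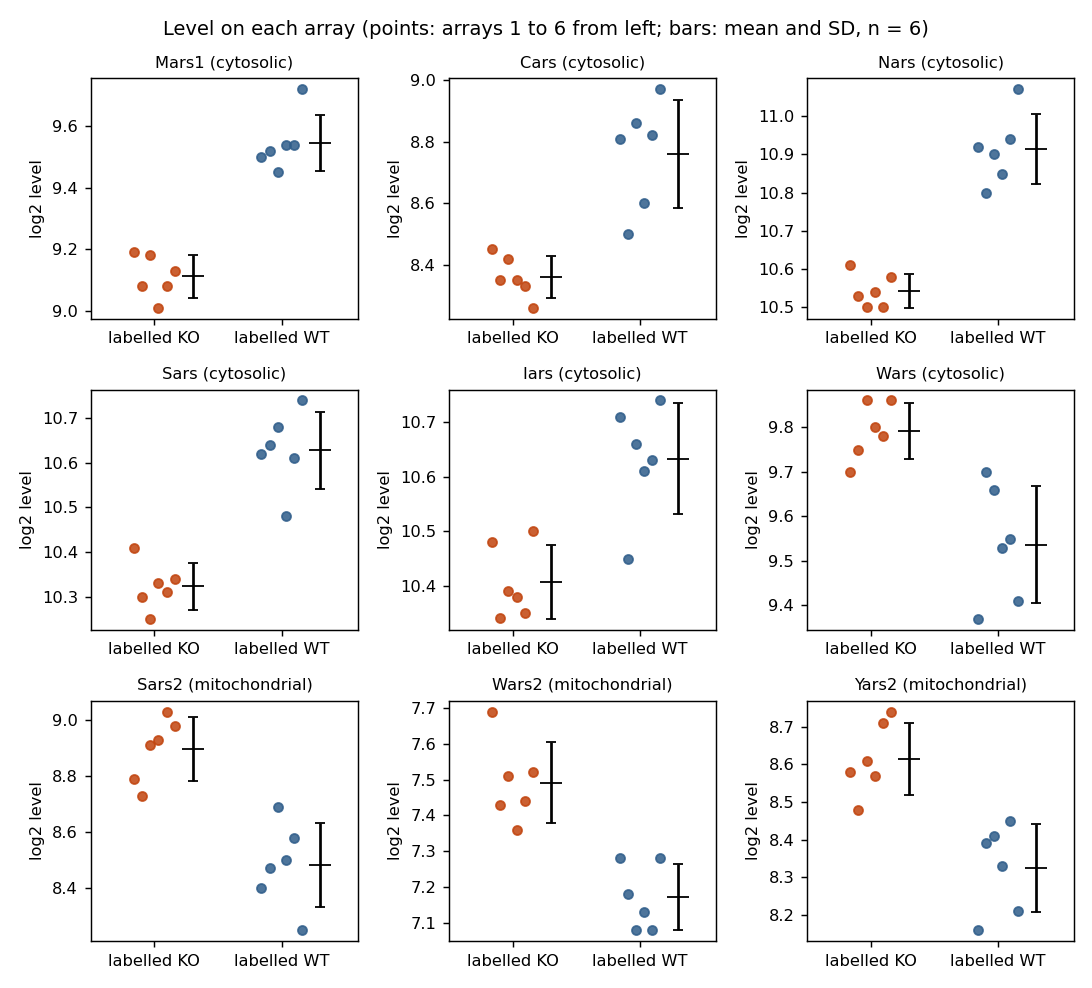
Log2 level of 9 synthetase transcripts on each array, labelled KO on the left of each panel and labelled WT on the right, with mean and SD (n = 6 each) beside the points; the vertical axes differ and do not start at 0. Mars1, Cars, Nars and Sars are wholly lower and Sars2, Wars2 and Yars2 wholly higher on the arrays labelled KO, while Iars and Wars overlap or meet.

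Falls were found both inside and outside the multisynthetase complex and in both structural classes of enzyme. Of 7 measured enzymes of the complex 5 fell (Mars1, Iars, Eprs, Lars and Kars), and of the 11 cytosolic genes outside it 4 fell and Wars rose (71.4% and 36.4% lower, against 11.8% of all genes), with median log2 differences of -0.17 and -0.11. Class I enzymes, whose catalytic domain has a Rossmann fold, had 4 lower and 1 higher of 9, and class II enzymes, built on a different fold, had 4 lower of 8. These shares were 44.4% and 50% lower, against 11.8% of all genes, and 11.1% and 0% higher, against 20.1%. The median differences of these classes were -0.14 and -0.11. Eprs, which joins an enzyme of each class, was left out of that count. Of the 12 measured cytosolic enzymes that ATF4 is known to raise in mouse cells, 8 fell (66.7%, against 11.8% of all genes), Wars rose and 3 did not pass, with a median of -0.19. The 3 scaffold genes of the complex went different ways, with 1 higher and 1 lower (33.3% each, against 20.1% and 11.8% of all genes). Eef1e1 rose (0.44 ± 0.06 SE, adjusted p = 0.000108) and Aimp1 fell (-0.215 ± 0.077 SE, adjusted p = 0.0462), while Aimp2 differed by 0.115 (adjusted p = 0.141).

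Among mitochondrial enzymes the serine enzyme Sars2 had the largest rise. Its lowest, median and highest levels were 8.73, 8.92 and 9.03 on the arrays labelled KO and 8.25, 8.485 and 8.69 on the arrays labelled WT, a 1.33-fold difference (log2 0.41 ± 0.07 SE, adjusted p = 0.000701). Wars2, for tryptophan, lay at 7.36, 7.475 and 7.69 on the arrays labelled KO and at 7.08, 7.155 and 7.28 on the arrays labelled WT (0.32 ± 0.06 SE, adjusted p = 0.001). Yars2, for tyrosine, lay at 8.48, 8.595 and 8.74 on the arrays labelled KO and at 8.16, 8.36 and 8.45 on the arrays labelled WT (0.29 ± 0.06 SE, adjusted p = 0.00237). In each of the 3 genes every array labelled KO was above every array labelled WT. In all, 8 of the 16 mitochondrial genes did not overlap in this direction, where 10.7% of all genes did.

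Rars2, Cars2, Hars2, Lars2 and Aars2 were the other 5 without overlap. They charge arginine, cysteine, histidine, leucine and alanine in mitochondria, and their log2 differences ran from 0.17 (Aars2) to 0.25 (Rars2), with adjusted p from 0.000629 to 0.0083. Pars2, the proline enzyme, and Tars2, the threonine enzyme, rose by 0.18 ± 0.06 and 0.12 ± 0.04 on the log2 scale (SE, adjusted p = 0.0388 and 0.0461). Both of these calls were lost under many alternatives, leaving out single arrays among them. Nars2 differed by 0.14 (adjusted p = 0.143), Mars2 by 0.08, Vars2 by 0.06, Ears2 and Fars2 by 0.05 each and Iars2 by -0.06 (adjusted p from 0.214 to 0.503). Ears2, Fars2 and Vars2 changed sign under other scalings. The rises were spread over both classes, with 5 of 9 class I and 5 of 7 class II enzymes called higher (55.6% and 71.4%, against 20.1% of all genes).

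A cytosolic gene and the mitochondrial gene for the same amino acid formed 14 combinations, with Fars2 counted both with Farsa and with Farsb. The mitochondrial difference was the higher in 13, by 0.03 (Vars with Vars2) to 0.72 (Sars with Sars2). The exception was Farsa with Fars2, where the mitochondrial difference was lower by 0.02. In Sars with Sars2, Cars with Cars2 and Lars with Lars2 both genes passed, in opposite directions. In Mars1 with Mars2, Nars with Nars2 and Iars with Iars2 only the cytosolic gene passed, and Iars2 also had a negative difference (-0.058). In Yars with Yars2, Rars with Rars2, Tars with Tars2 and Hars with Hars2 only the mitochondrial gene passed. Wars and Wars2 both rose. Hars and Hars2 lie next to each other on chromosome 18 (GRCm38.p6), where their annotated spans overlap at the ends, yet Hars differed by 0.005 and Hars2 by 0.22 ± 0.04 (SE, adjusted p = 0.00155). The difference within each combination was not tested.

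On each array labelled KO, the 18 cytosolic genes averaged 0.06 to 0.171 below the mean of the arrays labelled WT, and the 16 mitochondrial genes 0.101 to 0.213 above it. Among the arrays labelled WT the same averages ran from -0.047 to 0.066 and from -0.031 to 0.033. The mitochondrial average minus the cytosolic average, from which any shift common to an array cancels, was 0.272 to 0.366 on the arrays labelled KO and -0.097 to 0.046 on the arrays labelled WT. The array labelled WT6 stood lowest in that measure, and the array labelled KO5 highest.

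**Figure D3:**
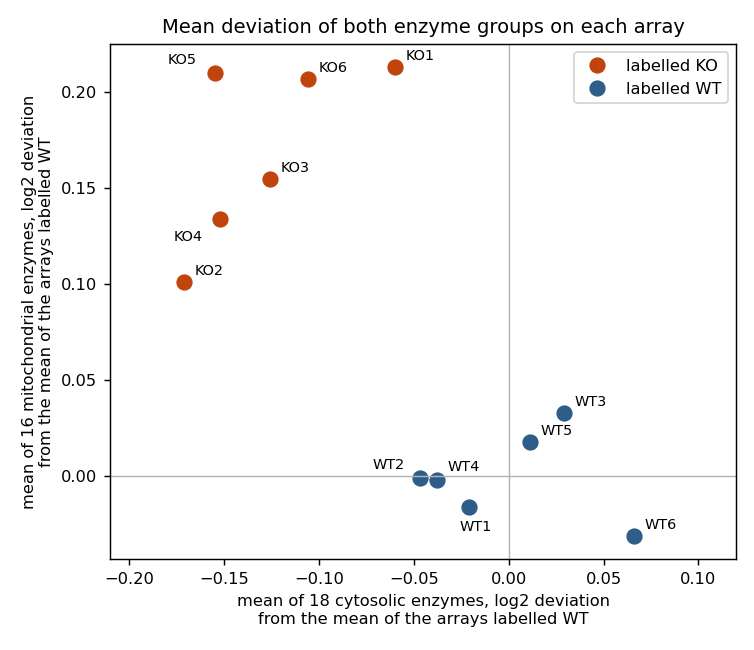
Mean log2 deviation of the 18 cytosolic (horizontal) and 16 mitochondrial (vertical) synthetase genes on each of the 12 arrays, relative to the mean of the arrays labelled WT. The 6 arrays labelled KO lie at -0.171 to -0.06 and 0.101 to 0.213, apart from the 6 labelled WT near the origin.

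Genes of the amino acid response, the programme run by ATF4, more often fell than rose. Of 30 measured of 32 listed, 12 fell (40%, against 11.8% of all genes) and 4 rose (13.3%, against 20.1%), with a median log2 difference of -0.15. The largest falls were those of Mthfd2, a mitochondrial enzyme of folate metabolism (-1.28 ± 0.13 SE, adjusted p = 1.62e-05), and Asns, which lay at 9.33 to 9.78 on the arrays labelled KO and 10.04 to 10.65 on the arrays labelled WT. The Asns difference was -0.94 ± 0.10 (SE, adjusted p = 1.48e-05), with no overlap between the groups. Slc7a1, a carrier of arginine and lysine, differed by -0.82 ± 0.10 (SE, adjusted p = 7.32e-05), and the stress-induced Ddit4 by -0.79 ± 0.23 (SE, adjusted p = 0.0163). Atf4 itself, named here after its value was seen, lay at 8.14 to 8.32 on the arrays labelled KO and 8.46 to 8.74 on the arrays labelled WT (-0.35 ± 0.06 SE, adjusted p = 0.000341). The 4 that rose were Slc1a5, a glutamine carrier (0.55), and Psph, Shmt2 and Aldh18a1, enzymes of serine, glycine and proline synthesis (0.26, 0.24 and 0.19). Ddit3 and Trib3, further targets of the stress response, did not pass (-0.05 and -0.13, adjusted p = 0.636 and 0.0935).

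The promoters of the cytosolic genes were searched for the letters TGATGNAA, the core that ATF4 binds with its partners, on both strands from 250 bases before to 50 bases after the annotated start (RefSeq, GRCm38.p6). A window was found for 13 of the 20 cytosolic and 14 of the 16 mitochondrial genes, and Cars, Hars, Lars, Nars, Rars, Vars, Wars, Hars2 and Pars2 had none. Of the 13 cytosolic genes 5 held a match (38.5%: Aars, Gars, Iars, Tars and Yars), and of the 14 mitochondrial genes 0 did, where 4.51% of 27025 genes did. Gars and Iars were among the genes that fell, and Tars and Yars among those that did not pass. Mars1 and Sars, with larger falls, held no match in this window, and neither did Eprs and Kars, which also fell. Farsa, Farsb and Qars, which did not pass, held none either. A match is a run of letters and not evidence of binding. Below are 48 bases around each match in the measured genes and in Asns, on the strand that reads TGATGNAA, with the match in capitals. The Gars stretch is chr6:55037951-55037998 on the minus strand, that of Iars chr13:49682117-49682164 on the minus strand, that of Tars chr15:11399646-11399693 on the plus strand, that of Yars chr4:129189886-129189933 on the plus strand and that of Asns chr6:7693205-7693252 on the minus strand.
Gars: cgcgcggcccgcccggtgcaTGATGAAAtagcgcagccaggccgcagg
Iars: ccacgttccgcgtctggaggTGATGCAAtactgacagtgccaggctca
Tars: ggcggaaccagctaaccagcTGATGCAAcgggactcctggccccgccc
Yars: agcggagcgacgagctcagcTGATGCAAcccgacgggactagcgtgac
Asns: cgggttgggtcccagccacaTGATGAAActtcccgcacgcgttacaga

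Iars, Tars and Yars shared the letters TGATGCAA, which 1.03% of all genes held, and Gars and Asns shared TGATGAAA. Outside the 8 letters the stretches differed. The Iars window also held CACGTG, the site of MYC and related factors, which is the same on both strands and was found in 4 of the 13 cytosolic genes (30.8%), 1 of the 14 mitochondrial genes (7.14%) and 8.09% of all genes. The whole Iars window, chr13:49681880-49682179 on the plus strand, is given with both motifs in capitals, TGATGCAA appearing here as its reverse complement.
Iars promoter: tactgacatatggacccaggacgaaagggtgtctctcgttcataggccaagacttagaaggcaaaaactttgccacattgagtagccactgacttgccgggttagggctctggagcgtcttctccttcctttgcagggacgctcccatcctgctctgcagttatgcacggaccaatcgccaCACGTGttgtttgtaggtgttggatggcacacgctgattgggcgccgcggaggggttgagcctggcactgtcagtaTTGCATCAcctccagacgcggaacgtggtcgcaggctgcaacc

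Other genes of mitochondrial protein synthesis mostly rose, with 9 of 13 called higher, where 20.1% of all genes were. Mitochondria make glutaminyl transfer RNA by amidation, and all 3 genes of the enzyme that does so passed, with Qrsl1 at 0.38 ± 0.10, Gatc at 0.22 ± 0.05 and Gatb at 0.21 ± 0.06 (SE, adjusted p = 0.0138, 0.00506 and 0.0122). Mtfmt, which formylates the initiator, differed by 0.065 (adjusted p = 0.416). Of 9 mitochondrial translation factors 6 rose (66.7%, against 20.1% of all genes), with a median log2 difference of 0.24. Mtif3 and Mtif2, which start translation, differed by 0.38 ± 0.07 and 0.27 ± 0.06, and the elongation factor genes Tsfm and Tufm by 0.265 ± 0.064 and 0.26 ± 0.06 (SE, adjusted p from 0.000907 to 0.00612). Gfm1, another elongation factor, differed by -0.14 (adjusted p = 0.0672).

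In the cytosol, 1 of 5 elongation factor genes was higher and 1 lower (20% each, against 20.1% and 11.8% of all genes), so these counts single out nothing about the list. Eef1a2, the form of the factor found in muscle and nerve, rose by 0.23 ± 0.07, and Eef2, which moves the ribosome along, differed by -0.16 ± 0.03 (SE, adjusted p = 0.0249 and 0.003). Of 5 genes for export, repair and editing of transfer RNA, 2 were higher (40%, against 20.1% of all genes) and 0 lower. The 2 higher were Aarsd1 and Dtd2, which clear wrongly charged transfer RNA, at 0.22 and 0.175 on the log2 scale (adjusted p = 0.00413 and 0.0194). Dtd1 differed by 0.17, Trnt1 by 0.05 and the exporter gene Xpot by -0.13 (adjusted p = 0.0555, 0.67 and 0.0701).

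**Figure D4:**
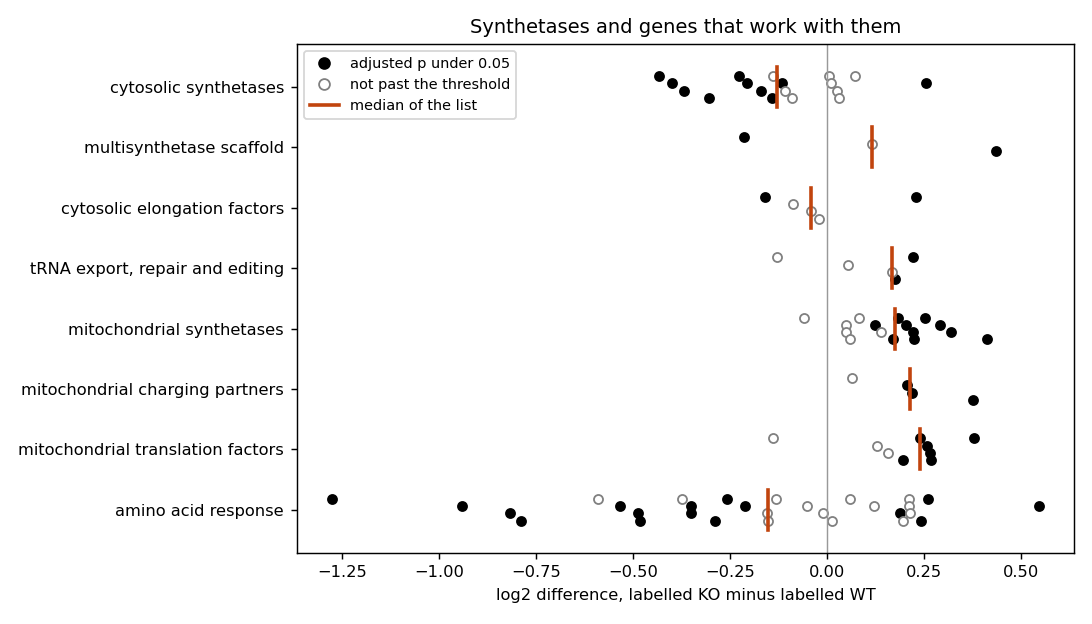
Log2 difference, labelled KO minus labelled WT, of each gene in 8 lists; filled points passed an adjusted p of 0.05, open points did not, and vertical lines are list medians. The medians are -0.13 for cytosolic and 0.18 for mitochondrial synthetases, 0.24 for mitochondrial translation factors and -0.15 for the amino acid response.

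Markers of other cells also differed between the groups, where 20.1% of all genes were called higher and 11.8% lower. Adipocyte markers were higher in 5 of 8 cases, fibroblast markers higher in 5 and lower in 1 of 6, endothelial markers higher in 4 of 5, macrophage markers in 5 of 5 and genes of dividing cells in 4 of 5. The mean adipocyte level was 8.15 to 10.01 over the group labelled KO and 8.11 to 9.01 over the group labelled WT. For dividing cells it was 9.27 to 9.54 with the label KO and 8.04 to 9.20 with the label WT. For macrophages it was 8.85 to 9.08 with the label KO and 8.20 to 8.62 with the label WT. Fibroblast and endothelial lists averaged 11.01 to 11.14 and 10.53 to 10.65 on the arrays labelled KO, against 10.56 to 10.90 and 9.85 to 10.39 on those labelled WT. Of 6 neutrophil markers 0 were called. They averaged 5.69 to 6.10 on the arrays labelled KO and 5.88 to 9.14 on those labelled WT. The array labelled WT4 was the highest, and the others labelled WT lay at 5.88 to 6.26. Since the samples were whole muscle, fewer cells of a type and less RNA per cell cannot be told apart, and the part of these cells in the synthetase differences was not tested. With the mean adipocyte level as a covariate 5 cytosolic genes (Mars1, Cars, Nars, Sars and Iars) were called lower and 4 mitochondrial genes (Sars2, Yars2, Rars2 and Hars2) higher, while calls over all probe sets dropped to 2974. The median differences were then -0.125 for the cytosolic and 0.215 for the mitochondrial genes, against -0.128 and 0.176 without the covariate, and the SE of single genes was larger (0.080 against 0.050 for Mars1).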

How the data were processed

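Total RNA of quadriceps muscle was measured on 12 Affymetrix GeneChip Mouse Gene ST arrays. The authors extracted images with the Affymetrix operating software and used Affymetrix Power Tools for normalized gene level values. Its version, the way probes were summarised and the build were not given in the sources read. The deposited values are taken as log2 levels, a scale read from the values because the table names none. Groups and numbers came from the titles. No column lacked a sample, and no detection calls were used. Precision is limited by how many arrays there are.

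Of 35556 probe sets, 21789 had 1 gene symbol in the platform annotation, 1621 had several and 12146 were not listed. Symbols were updated from RefSeq (GRCm38.p6) for 21698. Differences, labelled KO minus labelled WT, were fitted with limma 3.58.1 (lmFit, eBayes) in R 4.3.3 without covariates, with Benjamini-Hochberg adjustment over the 21789 probe sets. The fit was tested on simulated data, where it recovered 18 of 50 planted log2 differences of 0.25 and 44 of 50 of 0.5. Far fewer probe sets were changed there than were called in these data, so the adjusted threshold was stricter there. The counts therefore do not give the share recovered in these data. A gene without a call can still differ by a small amount, within the limits set by its SE. Members and lists were chosen with earlier results of these data known. The cytosolic members past the threshold with the 5 largest falls and rises and the mitochondrial members with the 3 largest are given by lowest, median and highest array, and up to 4 passing genes of each related list are named. Genes named beyond that rule, including Atf4, Ddit3 and those with no call, were chosen after their values were seen. Alternatives were quantile normalization, centring of the arrays, the replicate number as a block, a filter on dim probe sets (lowest 30%), all rows, other variance settings, array weights, the methods' t-test, Y-linked and adipocyte covariates, the mean of a gene's probe sets and arrays left out. The methods do not say that a shared number marks littermates, and where nothing else shows separate handling, p-values measure the spread between these mice.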

Additional observations from a re-analysis of the deposited data

Results flagged for a closer look

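Among 68 sets of 6 arrays (34 genes in each group), 3 held an array far from the others by Dixon's test, and chance flags about 1 in 20. Pars2 lay at 6.65 on the array labelled KO1 and at 6.28 to 6.38 on the others labelled KO, a gap of 0.73 of the range. Ears2 lay at 7.50 on the array labelled KO6 and at 7.26 to 7.34 on the others labelled KO (0.667 of the range). Mars1 lay at 9.72 on the array labelled WT6 where the rest of the group labelled WT spanned 9.45 to 9.54 (0.667 of the range).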

How the results depend on the processing

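Of the 20 members called, 9 were called under all 26 alternatives (Cars, Iars, Mars1, Nars, Sars, Hars2, Rars2, Sars2 and Yars2) and 14 with each array left out in turn. Calls that arrays decided were those of Gars, Kars, Lars, Eprs, Pars2 and Tars2, with adjusted p up to 0.0708, 0.0606, 0.0691, 0.0532, 0.0749 and 0.0939. Leaving out 1 array gave 6 to 9 cytosolic genes lower, 1 higher, 8 or 9 mitochondrial genes higher, 0 lower, and 5924 to 7155 calls in all. The cytosolic median was then -0.14 to -0.11 and the mitochondrial median 0.141 to 0.190. With the replicate block, 7 cytosolic genes were lower and 8 mitochondrial genes higher (6074 calls in all). Same-numbered arrays deviated together with correlations of -0.223 to 0.168, and 2 of 6 arrays labelled KO correlated best with their own number, so the numbers were not taken to pair the mice.

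Scaling moved the small differences, in ways whose cause was not tested. The cytosolic median was -0.177 with quantile normalization, -0.188 with centring on named probe sets and -0.0775 with centring on all rows, an alternative chosen after seeing the data. The mitochondrial medians were 0.139, 0.116 and 0.227 in the same order. Centring on named probe sets gave 1 mitochondrial gene lower (Iars2), and centring on all rows gave 2 cytosolic genes higher and 5 lower. The adipocyte covariate gave 0 cytosolic genes higher, 5 lower, 4 mitochondrial genes higher with a median of 0.215, and 2974 calls in all.

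Reversed differences were all of genes without a call. With quantile normalization Farsb was at -0.031, Hars at -0.056, Qars at -0.0080, Vars at -0.033, Fars2 at -0.026 and Vars2 at -0.0026. With centring on named probe sets Farsb was at -0.050, Hars at -0.055, Qars at -0.035, Vars at -0.028, Ears2 at -0.010 and Fars2 at -0.012. Array weights put Farsb at -0.016 and Hars at -0.017, and the adipocyte covariate Hars at -0.042 and Vars at -0.0072. Without the arrays labelled WT1, WT2 and WT6, Farsb was at -0.040, Hars at -0.0067, Vars at -0.0017 and Fars2 at -0.017. Leaving out 1 array gave Hars -0.017 to 0.023 and Farsb -0.002 to 0.038.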
